A study of Mus musculus with 6 samples.

Results

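The genes examined are the 6 that code for the ubiquitin-like protein ISG15 and for the enzymes that attach it to other proteins or take it off: *Isg15*, *Uba7*, *Ube2l6*, *Herc6*, *Trim25* and *Usp18*. They were taken by symbol from a table of 54331 mouse genes, and all 6 were found in it. RNA was collected from bulk cultures of mouse embryonic fibroblasts (MEFs) on the way to induced pluripotent stem cells, at 10 days post infection (dpi). The fibroblasts came from pooled male embryos at E13.5, of mixed C57BL/6, DBA/2 and ICR background, and carried an Oct4-EGFP transgene. In both groups the cells had been transduced with retroviruses for Oct4, Sox2 and Klf4 and for AKT-MER, a myristoylated AKT fused to a modified estrogen receptor that 4-hydroxytamoxifen (4OHT) switches on. At 3 dpi the OSKA + 4OHT group (3 wells) received 4OHT and the OSKA − 4OHT group (3 wells) received the ethanol vehicle. The question was which of these genes differ in RNA level when AKT-MER is switched on during reprogramming. These 6 libraries hold no cells that received 4OHT without AKT-MER, so an effect of 4OHT itself cannot be told apart here from that of AKT. The wells were replated from the same transduction, so p-values measure the spread between wells.

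ISG15 is a small protein of the ubiquitin family that interferon induces strongly. It is joined to lysines of other proteins by a chain of enzymes like that of ubiquitin, and UBA7 activates it, UBE2L6 carries it, and a ligase, in the mouse mainly HERC6, transfers it to the target. USP18 cleaves ISG15 from its targets, and by a separate function it binds the interferon receptor subunit IFNAR2 and dampens signalling. TRIM25 is best known as a ubiquitin ligase of the RIG-I pathway and has also been described as a ligase for ISG15.

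The modifier, its carrier enzyme and its protease passed the test as higher in the OSKA + 4OHT group, and neither ligase passed it. *Isg15* rose 13.4-fold in mean TPM, a level scaled for transcript length and for the total of each well, *Usp18* 8.12-fold and *Ube2l6* 2.5-fold. *Uba7* was 2.36 times and *Herc6* 1.98 times as high without passing the test, and *Trim25* was at 0.816 of its OSKA − 4OHT level. Calls required an adjusted p (Benjamini-Hochberg) under 0.05 with a log2 fold change beyond 1 in either direction, from limma-trend on log2(TPM + 0.5). By this rule 3 of the 6 members were called higher and 0 lower, while 2.87% of all 15382 tested genes were called higher and 1.37% lower. With 1 well left out at a time, *Isg15* was called in 6 of 6 fits, *Usp18* in 2 and *Ube2l6* in 0. The members' median log2 fold change was 1.23, beside 0.14 for all tested genes. All 6 members passed the filter on low values, which asked for 1 TPM or more on average. In bulk RNA, fewer cells that express a gene and less RNA per cell cannot be told apart.

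**Figure D1:**
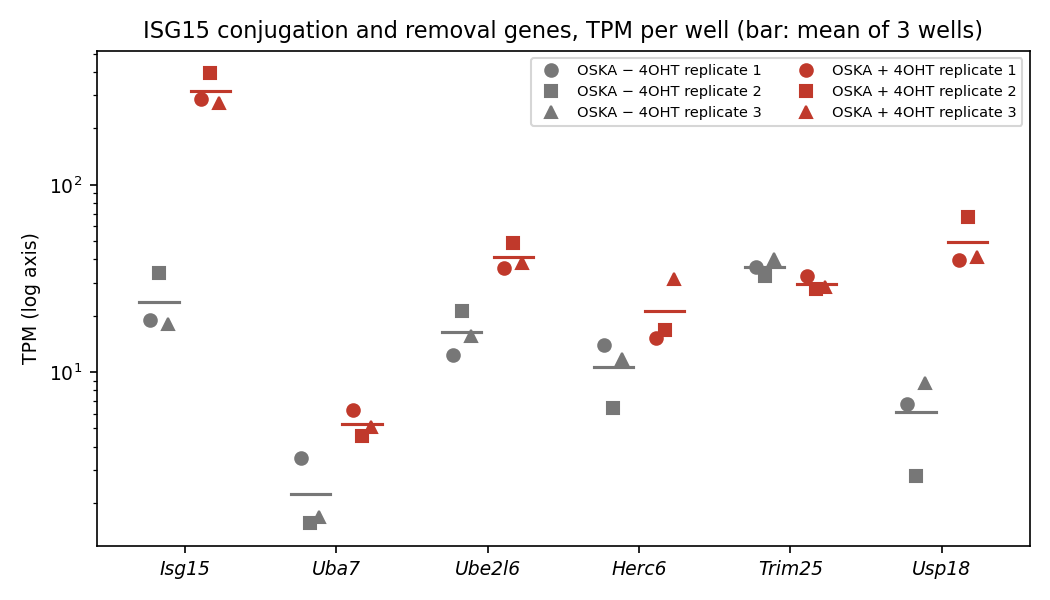
TPM on a log axis of the 6 members in each of the 6 wells, grey for OSKA − 4OHT and red for OSKA + 4OHT, with the marker shape giving the replicate and a bar at the mean of 3 wells. *Isg15* moved from 18.1 to 33.9 TPM up to 272 to 394 TPM, and *Trim25* is the member whose groups touch, at 32.7 TPM.

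The depth of the libraries bears on the low members. The table is scaled so that each well sums to 1000000, and the depth was read only approximately from the steps of low values. With the deepest library, OSKA − 4OHT replicate 2, at 1, the relative depth was 0.497 and 0.541 in the other OSKA − 4OHT wells and 0.800 to 0.908 in the OSKA + 4OHT wells. All 8 fibroblast markers looked at were detected in all wells, from *Pdgfra* at 4.78 to 6.5 TPM to *Col1a2* at 733 to 1759 TPM and *Vim* at 2075 to 4553 TPM.

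*Isg15* (ENSMUSG00000035692) lies on the minus strand at chr4:156199424-156200818 of GRCm38, with 1 annotated transcript of 756 bases. Its promoter stretch is shown because it carries the motif for which interferon-induced promoters are known. It is the 250 bases before the start, from RefSeq on GRCm38.p6, chr4:156200819-156201068, minus strand, with capitals marking GAAA, any 2 bases and GAAA again, the core of the interferon-stimulated response element (ISRE), to which the complex ISGF3 binds after interferon signalling.
Isg15: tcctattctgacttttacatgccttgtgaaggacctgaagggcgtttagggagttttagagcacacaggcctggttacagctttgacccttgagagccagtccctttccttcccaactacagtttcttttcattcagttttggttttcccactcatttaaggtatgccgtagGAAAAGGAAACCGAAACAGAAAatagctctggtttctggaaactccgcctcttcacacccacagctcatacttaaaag
The capitals form 1 run of 22 bases, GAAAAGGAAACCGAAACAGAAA, in which 3 matches overlap, at bases -78 to -69, -72 to -63 and -66 to -57 counted back from the start. The motif was searched on both strands of windows of 250 bases before to 50 after each start, and 3.44% of 32851 such windows held it. Windows with 3 or more matches were 5, or 0.0152%. The longer form that ends in GAAACT (0.271% of windows) and the gamma-activated site core TTCNNNGAA (8.30% of windows) had no match in the *Isg15* window.

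*Ube2l6* (ENSMUSG00000027078), the called member with a promoter entry and no match, is shown for contrast. It lies on the plus strand at chr2:84798828-84810335, and the stretch is chr2:84798578-84798827, plus strand, of GRCm38.p6.
Ube2l6: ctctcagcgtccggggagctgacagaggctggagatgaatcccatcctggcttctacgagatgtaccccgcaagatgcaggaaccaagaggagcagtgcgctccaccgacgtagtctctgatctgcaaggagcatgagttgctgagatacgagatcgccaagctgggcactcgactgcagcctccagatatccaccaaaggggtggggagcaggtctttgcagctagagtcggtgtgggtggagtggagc
The 2 stretches also differ in composition, with 44.8% G and C and 4 CG pairs in that of *Isg15* and 58.4% and 11 CG pairs in that of *Ube2l6*. The windows of *Uba7*, *Herc6* and *Trim25* held none of the 3 motifs either, which says only that these letters are not in these windows. A promoter entry was matched for 5 of the 6 members, all but *Usp18*.

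Wells are given below in the order of replicates 1, 2 and 3 of the OSKA − 4OHT group (without 4OHT) and of the OSKA + 4OHT group (with 4OHT). *Isg15* itself had 18.9, 33.9 and 18.1 TPM without 4OHT and 288, 394 and 272 TPM with 4OHT. Every OSKA + 4OHT well lay far above every OSKA − 4OHT well, and replicate 2 was the highest in each group. The mean rose from 23.7 ± 8.92 to 318 ± 66.6 TPM (SD, n = 3 each). The log2 fold change was 3.76 ± 0.28 (SE, 95% interval 3.07 to 4.45, adjusted p = 0.00366 by limma-trend). Of the 15382 tested genes, 58 had a larger log2 fold change and 25 a smaller adjusted p. The values rest on about 8.0, 29.0 and 8.37 reads in the OSKA − 4OHT wells and 186 to 306 reads in the OSKA + 4OHT wells. *AC151275.1*, a gene elsewhere that is 95.2% identical over 482 bases, was at 1.14 TPM in OSKA + 4OHT replicate 3 and listed at 0 in the other wells.

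*Uba7* (ENSMUSG00000032596, chr9:107975505-107984060, plus strand) codes for the E1 enzyme that activates ISG15. It had 3.48, 1.56 and 1.68 TPM without 4OHT and 6.26, 4.53 and 5.06 TPM with 4OHT. The groups did not overlap, and OSKA − 4OHT replicate 1 stood above the other wells of its group. Group means stood at 2.24 ± 1.07 and 5.29 ± 0.886 TPM (SD, n = 3 each), apart on the log2 scale by 1.13 ± 0.37 (SE, 95% interval 0.24 to 2.02, adjusted p = 0.145 by limma-trend). It was the lowest member in both groups, at about 5.17 to 9.82 reads in the OSKA − 4OHT wells and at least 23.0 in the OSKA + 4OHT wells if all came from its longest transcript. *Gm20661* overlaps it on the same strand and is 99.6% identical to it over 239 bases, with 0.750, 1.77 and 0 TPM in the OSKA − 4OHT wells and 0, 0 and 0.670 TPM in the OSKA + 4OHT wells. With that gene added, the log2 fold change of *Uba7* was 0.81 (adjusted p = 0.279 by limma-trend), so its level is uncertain.

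*Ube2l6* codes for the E2 enzyme that takes ISG15 over from UBA7. Its level was 12.4, 21.2 and 15.5 TPM without 4OHT and 36.0, 48.7 and 38.3 TPM with 4OHT. All OSKA + 4OHT wells were above all OSKA − 4OHT wells, and replicate 2 was again the highest in each group. It rose from 16.4 ± 4.47 to 41.0 ± 6.80 TPM (SD, n = 3 each), or on the log2 scale by 1.32 ± 0.25 (SE, 95% interval 0.73 to 1.91, adjusted p = 0.0353 by limma-trend). This call depended on all 6 wells, since the adjusted p was 0.0519 to 0.129 when any 1 well was left out. *Gm17167*, 95.1% identical to it over 508 bases, was at 0.872 TPM at most.

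*Herc6* (ENSMUSG00000029798, chr6:57581000-57664632, plus strand) codes for the main ISG15 ligase of the mouse. It had 13.9, 6.43 and 11.7 TPM without 4OHT and 15.2, 16.8 and 31.3 TPM with 4OHT. The groups did not overlap, but 13.9 and 15.2 TPM lay close together and OSKA + 4OHT replicate 3 stood well above the rest. Group means stood at 10.7 ± 3.83 and 21.1 ± 8.91 TPM (SD, n = 3 each), apart on the log2 scale by 0.94 ± 0.39 (SE, adjusted p = 0.235 by limma-trend). The 95% interval ran from just below 0 to 1.88, so neither no difference nor a rise like that of *Ube2l6* lies outside it.

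*Trim25* (ENSMUSG00000000275, chr11:88999376-89020293, plus strand) had 36.3, 32.7 and 40.2 TPM without 4OHT and 32.7, 27.9 and 28.4 TPM with 4OHT. The lowest OSKA − 4OHT well and the highest OSKA + 4OHT well met at 32.7 TPM. The mean went from 36.4 ± 3.76 to 29.7 ± 2.60 TPM (SD, n = 3 each), and on the log2 scale the difference was -0.29 ± 0.16 (SE, 95% interval -0.67 to 0.10, adjusted p = 0.365 by limma-trend). It was the member with the smallest SD relative to its mean in each group, and the interval leaves out a rise of the size of any called member. It was also the only member with a negative log2 fold change, under every setting tried.

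*Usp18* (ENSMUSG00000030107, chr6:121245906-121270917, plus strand) codes for the protease that removes ISG15. Its level was 6.77, 2.78 and 8.72 TPM without 4OHT and 39.8, 67.6 and 41.1 TPM with 4OHT. The groups were far apart, and replicate 2 was the lowest well of the OSKA − 4OHT group and the highest of the OSKA + 4OHT group. It rose from 6.09 ± 3.03 to 49.5 ± 15.7 TPM (SD, n = 3 each), or on the log2 scale by 3.01 ± 0.43 (SE, 95% interval 1.96 to 4.05, adjusted p = 0.0168 by limma-trend). The adjusted p was 0.0650 without OSKA − 4OHT replicate 1, and 0.0841, 0.0919 and 0.0701 without OSKA + 4OHT replicate 1, 2 or 3. It was under 0.05 without OSKA − 4OHT replicate 2 or 3. *Gm44148*, a noncoding RNA gene that overlaps *Usp18* on the opposite strand, had 6.38 TPM in OSKA + 4OHT replicate 2 and was listed at 0 in the other wells.

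**Figure D2:**
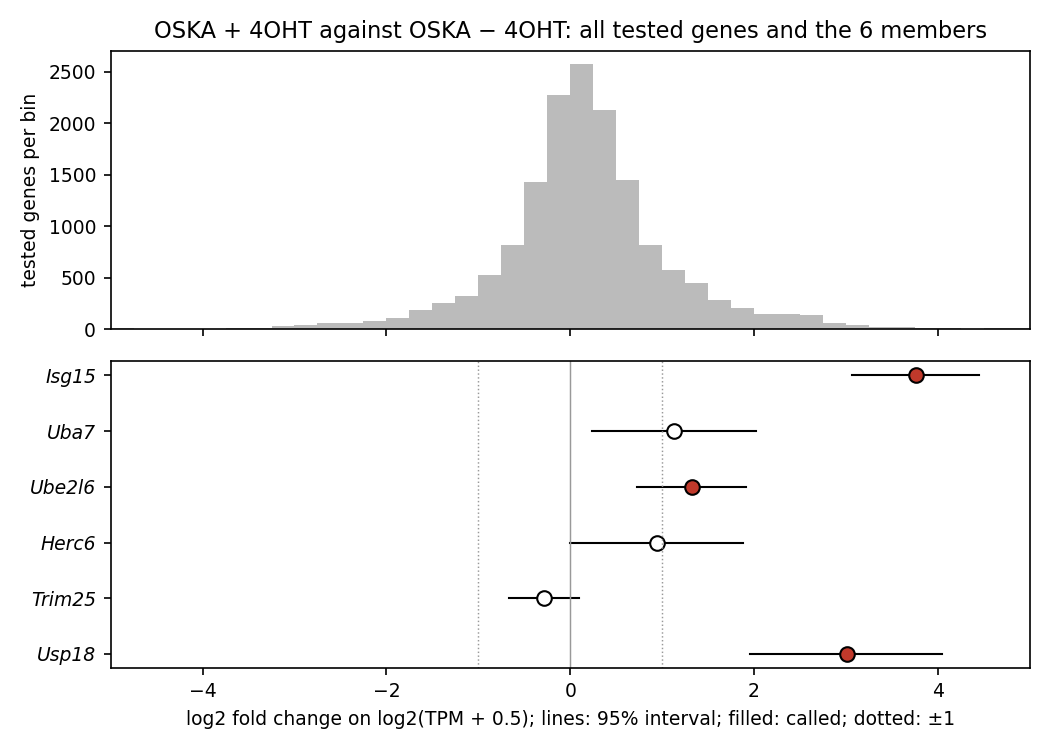
Above, the number of tested genes per bin of 0.25 in log2 fold change (OSKA + 4OHT over OSKA − 4OHT). Below, on the same axis, each member's log2 fold change with its 95% interval, filled where the gene was called. *Isg15* (3.76) and *Usp18* (3.01) lie in the far right tail of all genes, and the interval of *Trim25* (-0.67 to 0.10) includes 0.

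The 3 wells of each group did not overlap in 5 of the 6 members, all higher in OSKA + 4OHT, while 18.1% of all tested genes did not overlap in that direction and 10.0% in the other. An exact two-sided permutation test of 3 wells against 3 cannot give a p below 0.1, and it gave 0.1 for these 5 members and 0.200 for *Trim25*. At an adjusted p under 0.05 with no fold threshold, the same 3 of 6 members were higher, beside 3.52% of all tested genes. At an unadjusted p under 0.05, 4 of the 6 members were higher (*Uba7* beside the called ones), beside 14.1% of all tested genes. Scaling the wells by the median of ratios, or by quantiles, moved the median log2 fold change of all genes from 0.14 to 0.03 and -0.00470, and the same 3 members were called under both.

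The order of the members by TPM, which is a level per length, changed with the group. In OSKA − 4OHT wells the order was *Trim25* (36.4), *Isg15* (23.7), *Ube2l6* (16.4), *Herc6* (10.7), *Usp18* (6.09) and *Uba7* (2.24), and each neighbouring pair overlapped in its range over 3 wells. In OSKA + 4OHT wells *Isg15* (318) came first and stood apart, followed by *Usp18* (49.5) and *Ube2l6* (41.0), which overlapped. *Trim25* (29.7) and *Herc6* (21.1) overlapped below them, and *Uba7* (5.29) was last and stood apart. *Usp18* thus went from the fifth place to the second, and *Trim25* from the first to the fourth.

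The share of *Isg15* among the members was higher in every OSKA + 4OHT well than in any OSKA − 4OHT well. It made up 20.6%, 34.4% and 18.9% of the members' summed TPM without 4OHT and 68.9%, 70.4% and 65.4% with it. The summed TPM of *Uba7*, *Ube2l6* and *Herc6* was 29.8, 29.2 and 28.9 in the former and 57.4, 70.0 and 74.7 in the latter. That sum was close to even across the OSKA − 4OHT wells, although *Ube2l6* was highest and *Herc6* lowest in the same well, replicate 2.

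The ratio of *Isg15* to *Ube2l6* was 1.52, 1.60 and 1.17 without 4OHT and 8.0, 8.09 and 7.11 with it. It was even within each group, and the groups were apart. The ratio to *Uba7* was 5.43 to 21.7 against 46.0 to 87.0, that to *Herc6* 1.36 to 5.28 against 8.68 to 23.5, and that to *Trim25* 0.451 to 1.04 against 8.81 to 14.1. These 4 ratios did not overlap between the groups (exact permutation p = 0.1 each, 0.125 after Benjamini-Hochberg adjustment over 5 ratios), and with 3 wells against 3 the test cannot pass 0.05. The ratio of *Isg15* to *Usp18* was 2.79, 12.2 and 2.08 in the OSKA − 4OHT wells and 7.24, 5.83 and 6.62 in the OSKA + 4OHT wells. There the groups overlapped (exact permutation p = 0.400), and OSKA − 4OHT replicate 2, where *Usp18* was at 2.78 TPM, or about 7.13 reads if all came from its longest transcript and 1.15 if from its shortest, gave the highest ratio.

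**Figure D3:**
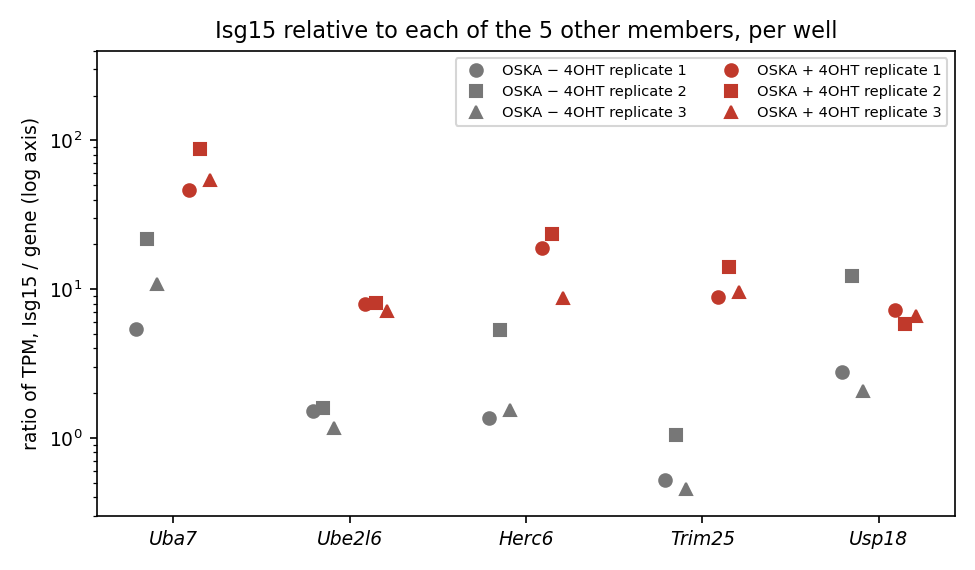
Ratio of TPM of *Isg15* to each of the 5 other members, on a log axis, in each well (grey OSKA − 4OHT, red OSKA + 4OHT, shape for the replicate). The ratio to *Ube2l6* moved from 1.17 to 1.60 up to 7.11 to 8.09, while that to *Usp18* spanned 2.08 to 12.2 in OSKA − 4OHT wells and enclosed the OSKA + 4OHT values.

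The wells did not rank alike for all members. Within OSKA + 4OHT, replicate 2 was the highest for *Isg15*, *Ube2l6* and *Usp18*, replicate 3 for *Herc6*, and replicate 1 for *Uba7* and *Trim25*. Within OSKA − 4OHT, replicate 2 was the highest for *Isg15* and *Ube2l6* and the lowest for the other 4 members, and it was also the deepest library.

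Upstream of the members stand the interferons and the factors that carry their signal. All 10 interferon ligand genes looked up, *Ifnb1*, *Ifna1*, *Ifna2*, *Ifna4*, *Ifna5*, *Ifnk*, *Ifne*, *Ifnl2*, *Ifnl3* and *Ifng*, were listed at 0 in all 6 libraries. A value listed at 0 need not mean no RNA, since 97 of the 5708 genes whose median exceeded 20 TPM had such a 0 somewhere among the libraries. Of 5 ISGF3 factors and interferon regulatory factors looked at, 1 was called higher and 0 lower, with a median log2 fold change of 0.94 over these genes, beside 2.87% and 1.37% of all tested genes and their median of 0.14. *Stat2*, a part of ISGF3 that also docks USP18 onto IFNAR2, had 13.2, 10.3 and 21.9 TPM against 44.6, 68.8 and 62.9 TPM (log2 fold change 1.97, adjusted p = 0.0239 by limma-trend). Its groups did not overlap, and with 1 well left out at a time it was called in 1 of 6 fits. With the replicate number as a block, *Stat2* had an adjusted p of 0.0882 by limma-trend and was not called. The other 4, *Irf1*, *Irf3*, *Irf7* and *Irf9*, had positive log2 fold changes of 0.75 to 2.47 and were not called.

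Among 9 partners of ISG15 and USP18, 8 were tested, and *Stat2* was the 1 called, with none lower, beside 2.87% of all tested genes called higher and 1.37% lower. The receptor subunits themselves, named here after their values were seen, did not pass the test. *Ifnar2*, to which USP18 binds, had means of 32.4 and 44.8 TPM (log2 fold change 0.46, adjusted p = 0.186 by limma-trend), and *Ifnar1* 24.5 and 22.9 TPM (log2 fold change -0.09, adjusted p = 0.765). The list's median log2 fold change was 0.06, near the 0.14 of all genes.

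Of 13 genes looked at for proteins reported to carry ISG15, 3 were called higher and 0 lower, with a median log2 fold change of 0.58, beside 2.87% and 1.37% of all tested genes and their median of 0.14. This count includes *Mx1*, whose call is set aside below. All 3 are genes of antiviral defence. Without a filter on low values, or with a filter of 5 TPM, 2 genes of this list were called. *Ifit1*, whose protein binds viral RNA ends, had 4.40, 4.24 and 11.1 TPM in OSKA − 4OHT wells and 58.3, 91.8 and 82.8 TPM in OSKA + 4OHT wells (log2 fold change 3.57, adjusted p = 0.00812 by limma-trend). *Mx1*, an antiviral GTPase, was at 0 to 0.405 TPM and at 3.0 to 11.3 TPM (log2 fold change 3.13, adjusted p = 0.0387), so its OSKA − 4OHT level is close to no reads. With a mean of 0.207 TPM in OSKA − 4OHT wells, *Mx1* passed the filter of 1 TPM only through its OSKA + 4OHT wells. No conclusion is drawn from its call. Its log2 fold change was 4.47 with a pseudocount of 0.1 and 2.46 with a pseudocount of 1, and its adjusted p was 0.0579 with no filter on low values. *Ddx58*, which codes for RIG-I, had 39.8 to 44.0 TPM and 69.8 to 108 TPM (log2 fold change 1.14, adjusted p = 0.0289). Its adjusted p was 0.0510 after scaling by the median of ratios and 0.0572 with a constant prior variance. Leaving out 1 well at a time, *Ifit1* was called in 3, *Ddx58* in 1 and *Mx1* in 0 of 6 fits. The other 10 genes of this list were not called. Among them *Eif2ak2*, which codes for the antiviral kinase PKR and is named here after its values were seen, had an adjusted p of 0.0389 by limma-trend with a log2 fold change of 0.95, short of the fold threshold.

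In 4 lists of related machinery of ubiquitin and other modifiers no gene was called. With 2.87% of all tested genes called higher and 1.37% lower, lists of 6 to 11 genes may hold no call by their size alone, so nothing is read from these counts. Of 9 other E1 enzymes, 0 were called in either direction (median log2 fold change 0.17), with the largest positive value in *Uba2*, a subunit of the SUMO E1 (0.56), and the largest negative value in *Uba6*, which activates ubiquitin and FAT10 (-0.58). Of 11 genes for ubiquitin and other ubiquitin-like modifiers, 0 were called (median 0.16), between *Ufm1* (-0.42) and *Ubd*, which codes for FAT10 (1.18). Of 8 relatives of UBE2L6, HERC6 and TRIM25, 0 were called (median 0.12), between *Trim47* (-0.34) and *Trim21* (1.71). *Trim21* had 1.58, 6.01 and 4.64 TPM against 15.9, 13.6 and 10.1 TPM, and its adjusted p was 0.0932 by limma-trend. Of 6 ubiquitin proteases reported to react with ISG15, 0 were called (median 0.11), between *Usp21* (-0.66) and *Usp13* (0.99). In OSKA − 4OHT wells *Uba7* averaged 2.24 TPM and *Uba1*, its counterpart for ubiquitin, 368 TPM, both on the scale per length. *Ubb*, a gene for a ubiquitin precursor, averaged 739.6 TPM there, beside 23.7 TPM of *Isg15*. *Uba1* and *Ubb* were chosen as counterparts after their values were seen.

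**Figure D4:**
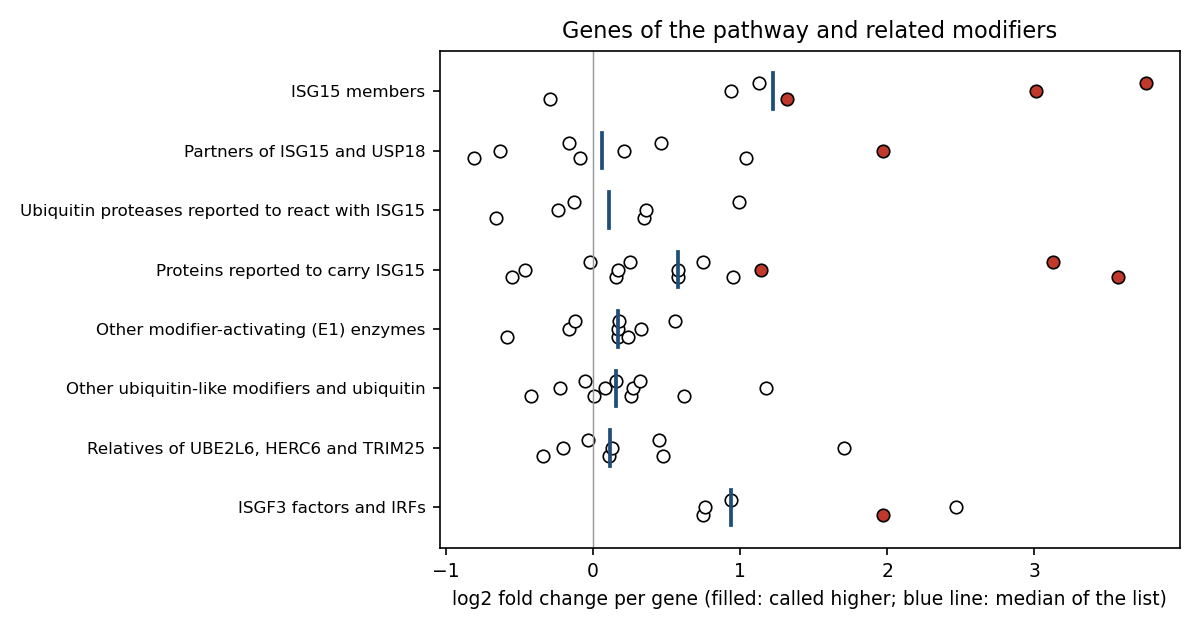
Log2 fold change (OSKA + 4OHT over OSKA − 4OHT) of each tested gene of the members and of 7 related lists, filled where called higher, with a blue line at each list's median. Called genes stand among the members, the proteins reported to carry ISG15 (with *Mx1* among them), the partners and the ISGF3 factors. *Stat2* is the only called gene of the partners and also of the ISGF3 factors. Of all tested genes, 2.87% were called higher and 1.37% lower, so nothing is read from the lists without a call. *Stat2* and *Irf3* each appear in 2 lists.

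The ISRE core, held by 3.44% of all windows, was also looked for in the windows of these lists. It was found in *Stat2* and *Skp2* of 7 partners with an entry, in *Eif2ak2*, *Ddx58* and *Ifit1* of 10 proteins reported to carry ISG15, in *Mocs3* of 6 E1 enzymes, in *Trim21* of 7 relatives, in *Ifna1*, *Ifna2*, *Ifna4* and *Ifna5* of 10 interferon ligands, in *Stat2* alone of the 5 ISGF3 factors and interferon regulatory factors, and in none of the ubiquitin proteases or other modifiers. *Ifit1* held the longer form at 2 places, GAAAGTGAAACT and GAAACTGAAACT, and *Ddx58* at 1, GAAATCGAAACT, each on the strand opposite to the gene.

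The genes whose pattern over the 6 wells was most like the members' mean were *Crabp2*, *Ankrd6*, *Apol9a*, *Gbp3* and *Kcnk3*, with Pearson correlations of 0.996 to 0.997 among 11030 genes that averaged 5 TPM or more. The points share the same 6 libraries and mostly reflect the gap between groups, and 7.28% of the genes compared had a correlation above 0.9. *Ankrd6* and *Kcnk3* averaged 2.40 and 0.963 TPM without 4OHT, so they reached 5 TPM only through their OSKA + 4OHT wells. No conclusion is drawn from the place of these 2 genes. *Gbp3*, an interferon-inducible guanylate-binding protein gene, had 10.5, 5.66 and 8.85 TPM without 4OHT and 66.0, 83.2 and 97.7 TPM with 4OHT. *Apol9a* had 11.3, 7.25 and 7.98 TPM against 55.2, 70.8 and 56.5 TPM. *Apol9a* and *Gbp3* belong to families of similar genes between which Salmon could split reads, so their levels are uncertain. *Ankrd6* had 2.33 to 2.43 TPM against 8.62 to 9.72 TPM, and *Kcnk3*, a potassium channel gene, 0.778 to 1.09 TPM against 10.5 to 12.9 TPM. *Crabp2*, which codes for a carrier of retinoic acid, was the most abundant of them, with 183 to 219 TPM in OSKA − 4OHT wells and 711 to 748 TPM in OSKA + 4OHT wells.

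Markers of other cell types were also looked at, and their counts stand beside 2.87% of all tested genes called higher and 1.37% lower. Of 4 epithelial markers, which also mark reprogramming cells, 3 were called higher (*Cdh1*, *Epcam* and *Krt8*), and their summed TPM was 30.1 to 69.4 in OSKA − 4OHT wells and 144 to 156 in OSKA + 4OHT wells. Of 8 fibroblast markers, *Lum* was called higher and *Pdgfrb* lower, and the sum was 5973 to 7789 TPM and 3981 to 5236 TPM. That sum is mostly *Vim*, *Col1a1* and *Col1a2*, and 3 of the 8 (*Lum*, *Thy1* and *Dcn*) had positive log2 fold changes, with groups that did not overlap. *Col1a2* had a log2 fold change of -0.88 (adjusted p = 0.0285 by limma-trend), short of the fold threshold. These fibroblast genes other than *Lum* and *Pdgfrb* were named after their values were seen. The part of these marker differences in those of the members was not tested. Of 10 macrophage markers 0 were called, and their sum was lower in OSKA + 4OHT wells, at 89.3 to 99.6 against 129.7 to 159.5 TPM. Most of that gap was *Lyz2*, named after its values were seen, with 90.1 to 101 TPM without 4OHT and 46.5 to 60.7 TPM with it (log2 fold change -0.88, adjusted p = 0.0299 by limma-trend, short of the fold threshold), while 4 of the 10 had a positive log2 fold change. Of 6 plasmacytoid and lymphoid markers, 4 (*Siglech*, *Cd3e*, *Nkg7* and *Klrb1c*) were listed at 0 in all libraries. The sum of that list, 38.8 to 63.3 and 44.7 to 94.5 TPM, was nearly all *Tcf4*, which other cells also express. Of 5 endothelial markers 2 were tested and 0 called, with sums of 21.4 to 28.9 and 28.1 to 37.6 TPM.

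**Figure D5:**
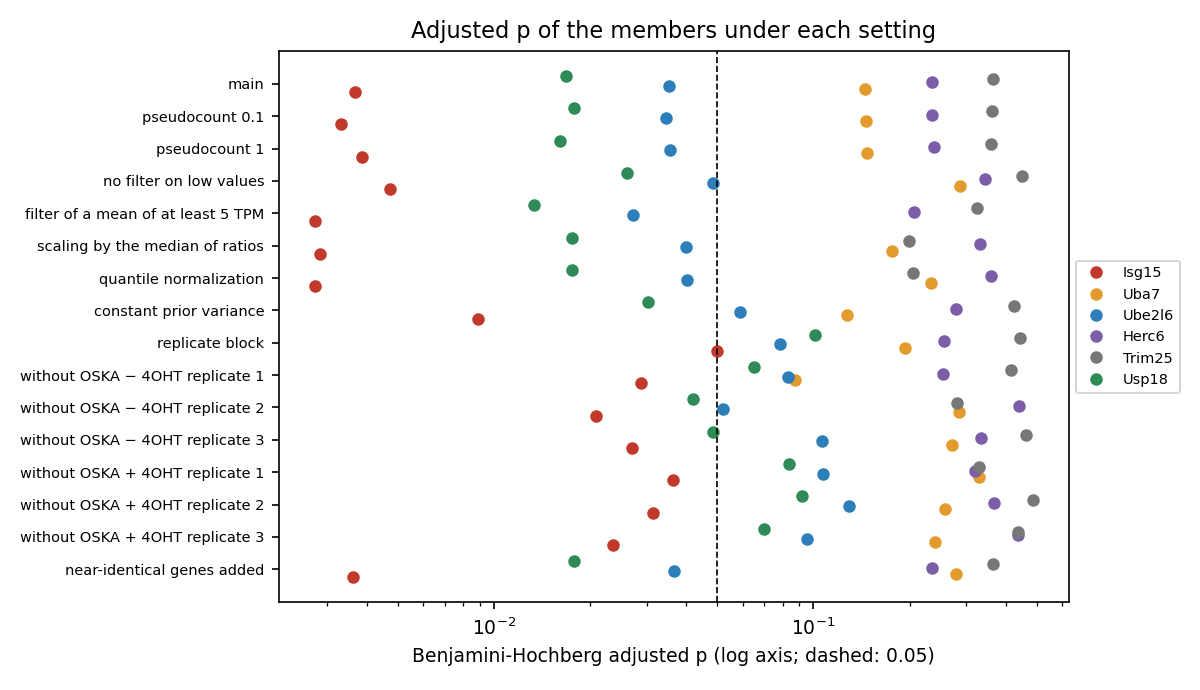
Benjamini-Hochberg adjusted p of each member (log axis, dashed line at 0.05) under the reported fit and under each other setting, 1 row per setting. *Isg15* stays to the left of the line throughout, at 0.0499 at most, *Ube2l6* crosses it without any 1 well, under the replicate block and with the constant prior variance, *Usp18* crosses it under the block and in 4 of the 6 fits without a well, and *Uba7*, *Herc6* and *Trim25* stay to its right.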

How the data were processed

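The authors made polyA stranded libraries, read them as single-end reads, trimmed them with Trim Galore and quantified them with Salmon. The deposited values are TPM, with a total of 1000000 in each well. The Salmon version and annotation are not given in the sources used here. Columns of the authors' own group comparison by edgeR (fold change, average level, F statistic and p-value) were not used. Symbols and positions came from GENCODE M21 on GRCm38, which may not be the authors' release, and 54097 of 54331 identifiers matched.

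Differences were tested by limma-trend on log2(TPM + 0.5) (limma 3.58.1, R 4.3.3), all 6 wells, no block, over genes averaging 1 TPM or more, so fold changes understate low genes. The members and lists were chosen with earlier results of these data known. The text names all members, called genes of each pathway list (or its extremes where none was called), and the 5 genes nearest in pattern. Marker genes and other list genes named beside these were chosen after their values were seen. On simulated data for this comparison (15382 genes, 200 changed), 35.0% of the genes changed by a log2 of 1.5 and 72.0% of those changed by 3.0 were recovered, with 8 false calls, and 0 calls were made when nothing changed. Missing the threshold thus does not show equal levels.

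Reads were estimated from steps of TPM times length less an assumed fragment of 250 bases. Between 36.7% and 40.8% of low values lay within 0.15 of a whole read, against 30% for even spread, so reads are approximate, cover counting error only, and no count test was run. Genes at least 95% identical over at least 100 bases were found with BLAST 2.17.0. They were kept if they overlapped the member, or if the aligned stretch reached 30% of the longest transcript of either gene. Tables were handled with Python 3.11.15, pandas 2.3.3 and numpy 2.4.6. Protein sequences were not used here, and some genes of the lists are not reported here and were left out of the lists' counts. Alternatives were other pseudocounts, filters, scalings and variance models, a replicate block, leaving out each well, and adding near-identical genes.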

Additional observations from a re-analysis of the deposited data

How the results depend on the processing

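No member changed direction under any of the 15 other settings. *Isg15* was called in all of them, with log2 fold changes of 3.60 to 4.05. *Uba7*, *Herc6* and *Trim25* were called in none, and *Uba7* was not tested with the filter of 5 TPM. Without 1 well at a time, the log2 fold change of *Ube2l6* was 1.14 to 1.52 (adjusted p 0.0519 to 0.129) and that of *Usp18* 2.57 to 3.31 (adjusted p 0.0419 to 0.0919). The number of members called was then 1 to 2. The number of proteins reported to carry ISG15 called was 0 to 2 (3 in the reported fit, with *Mx1* among them). Of all tested genes, 134 to 307 were then called higher and 65 to 120 lower. The lowest counts over all tested genes came without OSKA + 4OHT replicate 1. With a constant prior variance *Ube2l6* (1.32) had an adjusted p of 0.0587. The deviations of same-numbered wells were only weakly correlated (0.024, 0.034 and 0.084), although each OSKA − 4OHT well correlated best with its own number. With 3 wells per group these values cannot decide whether the numbers pair the wells. With the replicate number as a block, 31 genes were called higher and 16 lower, 1 member was called and 0 proteins reported to carry ISG15. Under this block *Usp18* (3.01) had an adjusted p of 0.101 and *Ube2l6* (1.32) one of 0.0786, with fewer residual degrees of freedom. Of all calls, 67.7% were higher in the reported fit, 55.4% after scaling by the median of ratios (366 higher, 295 lower) and 53.1% after quantile normalization (335 and 296). With the longer motif that ends in GAAACT, *Isg15* had 0 matches. The cause of these shifts was not tested. Depth limits *Uba7* and *Usp18* in OSKA − 4OHT wells, at 5.17 to 9.82 and 7.13 to 12.1 reads if all came from the longest transcript, and *Isg15* at 8.0 to 29.0 reads.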
